A study of Mus musculus with 2 samples.

Results

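The 4 Hox gene clusters of the mouse were examined in 2 libraries of immunoprecipitated DNA from mouse embryonic stem (ES) cells. They were taken as fixed ranges of the mm9 genome, with bounds that use no read count: HoxA at chr6:52100001-52220000 (120 kb), HoxB at chr11:96050001-96235000 (185 kb), HoxC at chr15:102750001-102870000 (120 kb) and HoxD at chr2:74490001-74610000 (120 kb). The clusters were chosen with earlier results of these data known. Together they make up 545 of 2638998 bins of 1 kb on chromosomes 1 to 19 and X. Each was set against the 500 kb on either side of it, 4000 bins in all. In one library, chromatin crosslinked with formaldehyde was precipitated with a rabbit antibody raised against mouse H2ABbd. In the other (MeDIP), sheared, denatured genomic DNA was precipitated with the monoclonal antibody 33D3 against 5-methylcytosine (5mC). Both samples are labelled as mouse ES cells kept in LIF, the cytokine that holds them pluripotent, with no feeder layer. The labels used here name no strain, genotype or line, and no input library was used. There was 1 library per group. No difference between the libraries therefore has a replicate check, no test of conditions was made, and every interval below is a 95% interval for counting error alone. The file names of the samples carry each other's antibody. The groups follow the sample labels, so the libraries are called by their labels here.

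Hox genes encode homeodomain transcription factors that give cells their position along the body axis. They lie side by side in clusters, in the order in which they are used from head to tail. In ES cells the clusters are known as silent chromatin held by Polycomb proteins, with many CpG islands and few interspersed repeats. H2ABbd is a short histone H2A variant of mammals that lacks the usual C-terminal tail and forms loosely wrapped nucleosomes. MeDIP recovers DNA according to the density of its methylated CpG sites, so a CpG-rich but unmethylated stretch and a CpG-poor stretch can both give few reads.

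RefSeq (GRCm38.p6) lists 39 Hox genes of the 4 clusters and the adjoining homeobox genes Evx1 and Evx2. Below, Evx1 is counted with HoxA and Evx2 with HoxD by name. Whether they lie inside the mm9 ranges was not checked. For HoxA the order along the chromosome ends with Hoxa13, a gene of the limb and hindgut, and then Evx1. HoxB runs from Hoxb13 to Hoxb1, HoxC from Hoxc13 to Hoxc4 and HoxD from Evx2 and Hoxd13 to Hoxd1. Gene positions in mm9 were not used here, so reads are given by mm9 position and not by gene. RefSeq promoters were at hand for 10 of 12 genes of HoxA, 10 of 10 of HoxD, 3 of 10 of HoxB and 1 of 9 of HoxC. Too few were matched in HoxB and HoxC for a count. In the 250 bases before the gene start, the 10 HoxA promoters held 3 to 35 CpG sites (median 11.5) and the 10 HoxD promoters 2 to 31 (median 12.5), against a median of 6 over 27025 genes. At least 10 CpG sites were found in 6 of 10 and 7 of 10, and in 38.2% of all genes. The promoters with the most and the fewest CpG sites of these 2 clusters are printed to show how far neighbouring genes differ in the sequence on which a 5mC antibody depends. They are written 5′ to 3′ with every CpG (the letters CG, which read the same on both strands) in capitals. They lie at chr6:52260881-52261130, minus strand (Hoxa13), chr6:52227371-52227620, minus strand (Hoxa9), chr2:74667975-74668224, plus strand (Hoxd13) and chr2:74679308-74679557, plus strand (Hoxd11), all in GRCm38.p6, which is not the build of the reads.
Hoxa13: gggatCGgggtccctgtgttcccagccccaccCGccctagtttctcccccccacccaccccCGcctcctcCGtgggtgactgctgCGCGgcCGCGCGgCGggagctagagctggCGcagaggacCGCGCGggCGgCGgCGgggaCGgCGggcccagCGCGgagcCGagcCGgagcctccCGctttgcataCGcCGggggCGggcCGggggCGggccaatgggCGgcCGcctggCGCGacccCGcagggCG
Hoxa9: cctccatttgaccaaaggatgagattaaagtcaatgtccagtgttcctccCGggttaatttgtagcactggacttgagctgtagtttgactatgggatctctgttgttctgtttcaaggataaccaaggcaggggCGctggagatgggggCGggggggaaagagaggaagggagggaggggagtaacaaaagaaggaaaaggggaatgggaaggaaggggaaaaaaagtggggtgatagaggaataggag
Hoxd13: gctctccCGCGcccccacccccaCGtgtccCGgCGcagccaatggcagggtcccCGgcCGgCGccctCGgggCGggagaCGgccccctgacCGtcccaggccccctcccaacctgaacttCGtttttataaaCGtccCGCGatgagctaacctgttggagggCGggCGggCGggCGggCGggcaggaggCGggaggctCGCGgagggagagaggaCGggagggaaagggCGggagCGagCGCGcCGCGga
Hoxd11: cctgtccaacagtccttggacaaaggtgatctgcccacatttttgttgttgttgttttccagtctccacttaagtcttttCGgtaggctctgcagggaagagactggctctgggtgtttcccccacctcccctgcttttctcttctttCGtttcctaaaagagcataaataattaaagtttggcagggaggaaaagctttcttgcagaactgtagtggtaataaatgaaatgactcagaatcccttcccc
Hoxa13 and Hoxd13, the genes of the tail-most group, had 35 and 31 CpG sites and a GC content of 80% and 74.4%. Hoxa9 and Hoxd11 had 3 and 2 CpG sites at 49.6% and 44.8% GC.

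The H2ABbd-labelled library held 1397289 distinct reads (chromosome, 5′ end and strand counted once) of 3503839 aligned, and the 5mC-labelled library 8056333 of 9266471, which makes it 5.77 times deeper. Of these, 362 and 2144 lay in the Hox clusters, equal to 259 and 266 reads per 1000000 distinct reads of the library (RPM). Reads that repeated a position made up 60.1% of the H2ABbd-labelled library as a whole but 16.3 to 28.8% of its reads in the 4 clusters, and 18.9 to 21.3% in the flanks. In the 5mC-labelled library they made up 13.1% as a whole, 3.75 to 4.31% in the clusters and 3.32 to 4.87% in the flanks. Clusters and flanks alike thus had a lower share of repeated reads than the library as a whole, in both libraries.

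In the H2ABbd-labelled library the clusters were at or above the level of their flanks. HoxA held 87 distinct reads, or 0.725 per kb, against 0.468 per kb in the left flank and 0.448 in the right, a ratio of 1.58 (1.24 to 2.00). HoxD held 67 (0.558 per kb, flanks 0.452 and 0.406, ratio 1.30, 0.991 to 1.69). HoxC held 79 (0.658 per kb, flanks 0.562 and 0.482, ratio 1.26, 0.983 to 1.60). HoxB held 129 (0.697 per kb, flanks 0.738 and 0.670, ratio 0.990, 0.814 to 1.197). HoxA was thus the cluster whose interval lay above 1, those of HoxC and HoxD began just below 1, and HoxB was level with its surroundings. Against flanks of 1 Mb HoxC came to 0.9501 (0.746 to 1.19) and HoxB to 0.798 (0.662 to 0.954), so the standing of both depends on how far the flanks reach. Over all 4 clusters the 362 reads compared with 299 at the flank densities, a ratio of 1.21 (1.09 to 1.34, from the error of the cluster count alone). At this depth a cluster of 120 kb had to lie at 1.28 to 1.30 times its flanks or more, or at 0.719 to 0.750 of them or less, to leave the Poisson range. This range leaves out the error of the flank counts, which the intervals of the single clusters include. By it HoxD, at 1.30, stood at its limit of 1.30, although its interval included 1.

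The clusters lay on both sides of their flanks in the 5mC-labelled library. HoxD held 411 distinct reads, 3.43 per kb against 2.73 and 2.86 in the left and right flank, a ratio of 1.23 (1.10 to 1.36). HoxA held 509 (4.24 per kb, flanks 3.80 and 3.49, ratio 1.16, 1.06 to 1.28). HoxB held 778 (4.21 per kb, flanks 4.93 and 4.13, ratio 0.928, 0.859 to 1.00), and it was below its left flank alone (0.852) but not its right (1.02). HoxC held 446 (3.72 per kb, flanks 4.15 and 4.21, ratio 0.889, 0.805 to 0.981). The intervals of HoxA and HoxD therefore lay above 1 and that of HoxC below. With 10 kb trimmed from both ends that of HoxC took in 1 (0.934, 0.839 to 1.04). Thinned in 1 random draw to the distinct reads of the other library, HoxA came to 0.980 (0.763 to 1.24), on the other side of its flanks. Over all 4 the 2144 reads compared with 2113 at flank density, a ratio of 1.01 (0.972 to 1.06).

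**Figure D1:**
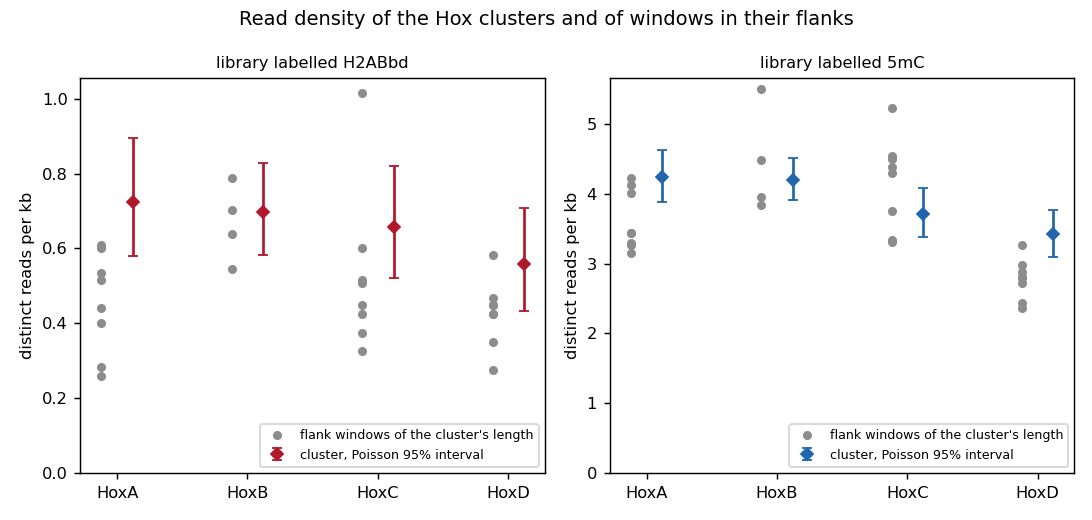
Distinct reads per kb (vertical axis) in each Hox cluster (diamond, Poisson 95% interval) and in windows of the same length laid side by side through its flanks (grey points, 8 for HoxA, HoxC and HoxD and 4 for HoxB), with the H2ABbd-labelled library on the left and the 5mC-labelled library on the right. HoxA lies above all 8 of its flank windows in both libraries, while the HoxC flanks hold 1 window far above the others.

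The flanks themselves varied, which gives a measure of spread beyond counting. Each 500 kb flank was cut into windows of the cluster's own length. The 8 windows around HoxA held 31 to 73 distinct reads of the H2ABbd-labelled library (median 57.5), all fewer than the 87 of the cluster. They held 379 to 508 of the 5mC-labelled library (median 412.5), against 509, so there the cluster was above its highest flank window by 1 read. For HoxD, 7 of 8 windows were below the cluster in the H2ABbd-labelled library (33 to 70, against 67) and 8 of 8 in the 5mC-labelled library (283 to 392, against 411). For HoxC, 7 of 8 windows were below the cluster in the H2ABbd-labelled library. The eighth, chr15:102510001-102630000, held 122 reads and 628 of the 5mC-labelled library. Without it the ratio of HoxC to its flanks was 1.45 (1.12 to 1.85) in place of 1.26 in the H2ABbd-labelled library, and 0.921 (0.833 to 1.02) in place of 0.889 in the other. Without the highest 10 kb step of the cluster the first was 1.15 (0.876 to 1.49). Within the eighth window, and so in the left flank, 10 kb picked after the values were seen stood out, chr15:102560001-102570000. There 58 reads of the H2ABbd-labelled library lay at 11.1 times the flank mean, and 95 of the 5mC-labelled library at 2.27 times. In the 5mC-labelled library the HoxC cluster (446) was below 6 of its 8 windows (397 to 628). For HoxB, 2 of 4 windows of 185 kb were below the cluster and 2 above in each library.

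Windows elsewhere in the genome differed from their flanks as much. Chromosomes 1 to 19 and X were cut into windows of 120 kb, each held against its own 500 kb flanks, with at least 80% of bins covered. A window counted as called at 1.5 times its flanks or more, or at 1/1.5 or less. In the H2ABbd-labelled library 1 of the 3 clusters of this length, HoxA, was called higher, where 11.1% of 17247 windows were. None was called lower, where 19.3% were. The middle 90% of windows ran from 0.480 to 1.80 (median 0.940), which takes in all 3 clusters. In the 5mC-labelled library none of the 3 was called, where 0.725% of windows were called higher and 1.11% lower, and the middle 90% ran from 0.773 to 1.28. HoxB was not called in either library, where 9.34% of 185 kb windows were called higher and 15.6% lower in the H2ABbd-labelled library, and 0.671% and 1.02% in the 5mC-labelled library. All 8 cluster values thus lay within the middle 90% of windows of their length.

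**Figure D2:**
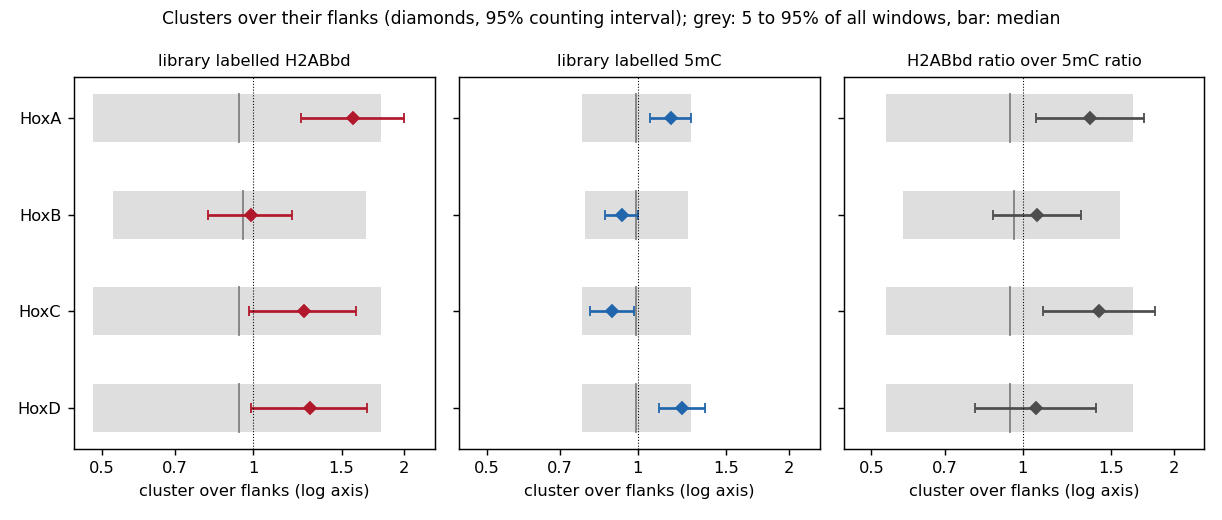
Density of each Hox cluster over its flanks (horizontal log axis, diamonds with 95% counting intervals) in the H2ABbd-labelled library, in the 5mC-labelled library, and as the first ratio over the second. Grey bars span the middle 90% of all genome windows of the same length with their median as a line, and all 12 diamonds lie inside them.

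The clusters also differed among themselves in their ratio to the flanks. Of 6 pairs compared in the H2ABbd-labelled library, with intervals not adjusted for their number, 1 had an interval that left out 1. The ratio of HoxA was 1.60 times that of HoxB (1.19 to 2.15). The other 5 pairs differed by less than their intervals, as HoxC and HoxD (0.969, 0.683 to 1.38). In the 5mC-labelled library the interval left out 1 for 4 of 6 pairs. By this ratio HoxD and HoxA stood above HoxB and HoxC. HoxA over HoxB came to 1.253 (1.11 to 1.41) and HoxA over HoxC to 1.31 (1.14 to 1.497). HoxB over HoxD came to 0.758 (0.666 to 0.861) and HoxC over HoxD to 0.726 (0.629 to 0.837). The order of the densities themselves was another. The 5mC-labelled library had 4.24 reads per kb in HoxA, 4.21 in HoxB, 3.72 in HoxC and 3.43 in HoxD. Their flanks had 3.65, 4.53, 4.18 and 2.80. HoxD thus had the lowest density of the clusters, and the lowest flanks.

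Set against each other by RPM of distinct reads, the libraries had ratios in the 4 clusters whose intervals all included 1. The ratio of the H2ABbd-labelled library to the 5mC-labelled library was 0.986 in HoxA (0.776 to 1.24), 0.956 in HoxB (0.787 to 1.15), 1.02 in HoxC (0.793 to 1.30) and 0.940 in HoxD (0.715 to 1.22). With all aligned reads in place of distinct ones the ratios were 0.564, 0.566, 0.631 and 0.496, all with intervals below 1, so this level depends on how repeated reads are counted. For distinct reads the flanks stood at 0.724 around HoxA, 0.720 around HoxC, 0.885 around HoxD and 0.896 around HoxB. The cluster ratio over the flank ratio, which does not depend on the total used for RPM, was 1.42 for HoxC (1.10 to 1.83), 1.36 for HoxA (1.06 to 1.74), 1.07 for HoxB (0.871 to 1.31) and 1.06 for HoxD (0.805 to 1.40). Relative to its flanks HoxA thus lay higher in the H2ABbd-labelled library than in the 5mC-labelled one, and so did HoxC, where the former lay above the flanks (1.26, an interval that includes 1) and the latter below (0.889). For HoxB and HoxD the interval of the quotient included 1. The same quotient ran from 0.534 to 1.66 in the middle 90% of 120 kb windows (median 0.944), with all 3 clusters of that length inside. The interval of HoxA reached 0.995 with flanks of 200 kb or 1 Mb. That of HoxC reached 0.902 with flanks of 1 Mb, 0.925 with 10 kb trimmed from both ends and 0.998 with the left flank alone. HoxC lies 625 kb from the last read of chromosome 15, so its wider right flank ends there.

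Within HoxA the reads of the H2ABbd-labelled library were concentrated in the middle. In 12 steps of 10 kb they numbered 3, 2, 11, 5, 5, 11, 12, 17, 8, 5, 4 and 4. The highest step was chr6:52170001-52180000, at 3.71 times the flank mean (2.16 to 5.94), and the lowest chr6:52110001-52120000, at 0.437 (0.0529 to 1.58). The 3 adjoining steps from 52150001 to 52180000, picked after their values were seen, held 40 of the 87 reads, 46.0% in 25% of the length, and lay 2.91 times above the flanks. The other 90 kb lay at 1.14 (0.826 to 1.54). The 5mC-labelled library had 158 reads in these 3 steps, 1.45 times its flanks (1.22 to 1.69). Its steps in HoxA numbered 51, 38, 45, 41, 31, 52, 59, 47, 41, 42, 25 and 37, highest at chr6:52160001-52170000 (1.62, 1.23 to 2.09). Its lowest step was chr6:52200001-52210000, at 0.686 (0.444 to 1.01). Both libraries were thus above their flanks in the same middle part of HoxA. These steps were picked by the reads of the H2ABbd-labelled library. Their height in that library, and the lower level of the other 90 kb, follow in part from the choice. In the nearest 200 kb of the flanks, 10 kb steps reached 2.84 in the H2ABbd-labelled library and 1.67 in the 5mC-labelled library. The latter was above the highest step of the cluster.

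In HoxD, the steps of the H2ABbd-labelled library held 5, 3, 8, 8, 7, 1, 4, 12, 9, 5, 5 and 0 reads, highest at chr2:74560001-74570000 (2.80, 1.45 to 4.89). The last step, chr2:74600001-74610000, held 0, which allows up to 3 counts as a 1-sided 95% limit. The steps of the 5mC-labelled library held 28, 24, 43, 39, 48, 32, 36, 35, 43, 36, 23 and 24, highest at chr2:74530001-74540000 (1.72, 1.27 to 2.28) and lowest at chr2:74590001-74600000 (0.823, 0.522 to 1.23). Stretches of adjoining high steps were again picked after their values were seen, so their height follows in part from the choice. The 30 kb from 74510001 to 74540000 held 130 reads of the 5mC-labelled library, 1.55 times the flanks (1.29 to 1.85), and 23 of the H2ABbd-labelled library, 1.79 times (1.12 to 2.72). The 20 kb from 74560001 to 74580000 held 21 reads of the H2ABbd-labelled library (2.45, 1.499 to 3.79) and 78 of the 5mC-labelled library (1.40, 1.10 to 1.75). In the last step, 0 and 24 reads were found. Steps in the nearest 200 kb of the flanks reached 3.03 in the H2ABbd-labelled library, above the highest of the cluster. In the 5mC-labelled library they reached 1.72, as high as in the cluster.

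In HoxB the 18 full steps held 2 to 13 reads of the H2ABbd-labelled library (median 6.50), highest at chr11:96110001-96120000 (1.85, 0.983 to 3.16). The lowest steps were the neighbours chr11:96060001-96070000 and chr11:96070001-96080000, with 2 reads each (0.284, 0.0344 to 1.03). The 5mC-labelled library held 28 to 58 (median 43.0), highest at chr11:96090001-96100000 (1.28, 0.972 to 1.66) and lowest at chr11:96180001-96190000 (0.618, 0.411 to 0.893). From chr11:96210001 to 96235000 it stayed low, with 30 and 29 reads in the full steps and 10 in the last 5 kb, while the H2ABbd-labelled library held 5, 8 and 7 there. In HoxC the steps of the H2ABbd-labelled library held 3 to 13 reads (median 6), highest at chr15:102780001-102790000 (2.49, 1.33 to 4.26) and lowest at chr15:102830001-102840000 (0.575, 0.119 to 1.68). Those of the 5mC-labelled library held 24 to 50 (median 36.0), lowest in the first step, chr15:102750001-102760000 (0.574, 0.368 to 0.854), and highest at chr15:102770001-102780000 (1.196, 0.888 to 1.58). Steps in the nearest 200 kb of the flanks reached 2.415 (H2ABbd-labelled) and 1.70 (5mC-labelled) around HoxB. Around HoxC they reached 11.1 and 2.27. Each was above the highest step of its cluster in that library.

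**Figure D3:**
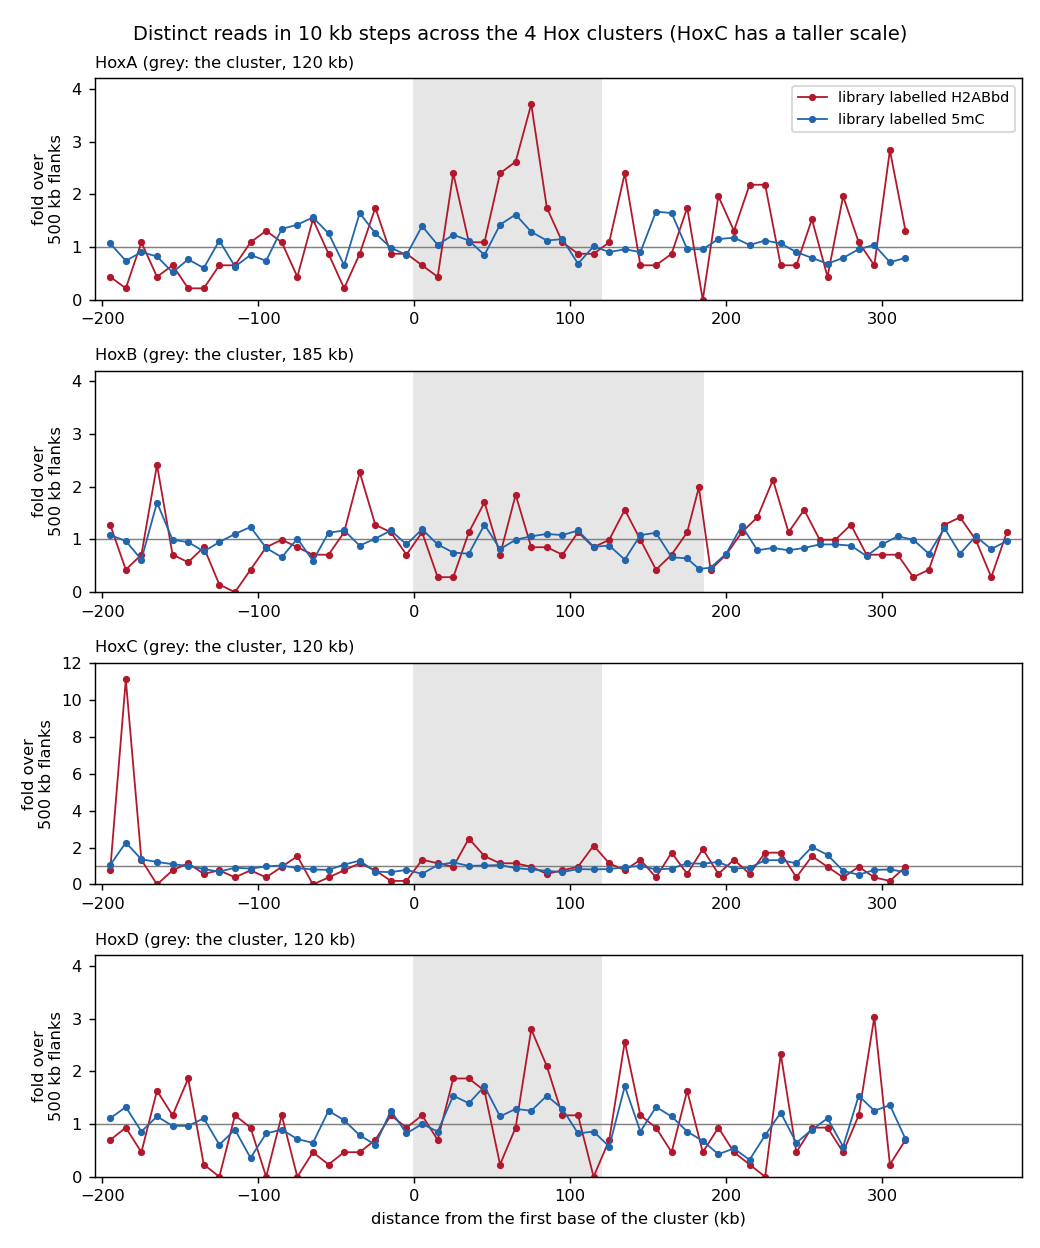
Distinct reads in 10 kb steps as fold over the mean of the 500 kb flanks (vertical axis, with a taller scale for HoxC), from 200 kb before to 200 kb after each cluster, by distance from its first base in kb (horizontal axis). In HoxA the H2ABbd-labelled library (red) reaches 3.71 inside the cluster (grey), and in HoxC its highest point, 11.1, lies outside it, in the left flank.

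Single bins inside the clusters were rarely called. A 1 kb bin was called in a library at an adjusted Poisson tail of 0.01 and 4 times the mean of the covered bins of its chromosome. Over the genome the fewest reads of a called bin were 5 in the H2ABbd-labelled library and 12 in the 5mC-labelled library. In the clusters the bins with 5 reads of the former, and those with 12 or 13 of the latter, were not called. In each library 1 of 523 covered cluster bins was called, 0.191% (exact Clopper-Pearson interval 0.00484 to 1.06%). Over all bins 1.18% were called in the H2ABbd-labelled library and 0.508% in the 5mC-labelled library. In the flanks 20 of 3807 bins were called in the former (0.525%) and 14 in the latter (0.368%). The interval treats bins as independent. Its upper limit of 1.06% was below the share of all bins called in the H2ABbd-labelled library and above that in the 5mC-labelled library. The first also held with a shift of 150 bp, without the 0.1% most covered bins, at 2 and 8 times the mean and in 500 bp bins. Under the other settings the interval took in the share of all bins. These were all aligned reads (4 of 523 bins, 0.209 to 1.95%, against 1.445%), no shift (2 of 520, 0.0466 to 1.38%, against 1.17%) and a local mean (1 of 523 against 0.676%). The same was found with the 5mC-labelled library thinned, at an adjusted tail of 1e-05 and in 5 kb bins.

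The bin called in the H2ABbd-labelled library was chr15:102780001-102781000 in HoxC, with 8 distinct reads (13.0 times the chromosome mean, 5.61 to 25.6) from 13 aligned reads, beside 7 of the 5mC-labelled library. The bin called in the 5mC-labelled library was chr11:96092001-96093000 in HoxB, with 18 distinct reads (4.35, 2.58 to 6.87), beside 4 of the H2ABbd-labelled library. The bins with the most reads of the H2ABbd-labelled library in the other clusters held 5 each. They were chr6:52120001-52121000 and chr6:52176001-52177000 in HoxA (9.42 times the chromosome mean), chr11:96056001-96057000 in HoxB (6.72) and chr2:74566001-74567000 in HoxD (8.12). Those of the 5mC-labelled library were chr6:52159001-52160000 and chr6:52162001-52163000 in HoxA with 12 reads each (3.54), chr15:102770001-102771000 in HoxC with 12 (3.32) and chr2:74520001-74521000 in HoxD with 11 (3.08). The bin with the most reads was therefore a different one for each library in all 4 clusters. Higher bins lay outside the clusters. In the left flank of HoxB, chr11:95884001-95885000 held 10 reads of the H2ABbd-labelled library (13.4) and 34 of the 5mC-labelled library (8.21). In the HoxC flanks, chr15:102567001-102568000 held 15 of the H2ABbd-labelled library (24.3) and chr15:103106001-103107000 held 40 of the 5mC-labelled library (11.1). The HoxA flanks reached 9 reads of the H2ABbd-labelled library at chr6:52408001-52409000 (17.0) and 21 of the 5mC-labelled library at chr6:52030001-52031000 (6.19). Those of HoxD reached 8 at chr2:74277001-74278000 (13.0) and 13 at 3 bins, among them chr2:74628001-74629000 (3.64).

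Empty bins were those with no distinct read. In the H2ABbd-labelled library 327 of 545 cluster bins were empty (60.0%, against 72.3% of all bins, those that neither library covers included). In covered windows the median share was 72.5% at 120 kb and 72.4% at 185 kb. By cluster the empty bins were 103 of 185 in HoxB (55.7%, 48.2 to 63.0%), 70 of 120 in HoxA (58.3%, 49.0 to 67.3%), 72 of 120 in HoxC (60.0%, 50.7 to 68.8%) and 82 of 120 in HoxD (68.3%, 59.2 to 76.5%). In the flanks 58.2% were empty around HoxB, 68.8% around HoxC, 69.4% around HoxA and 72.6% around HoxD. Each cluster thus had a lower share of empty bins than its flanks. The interval of HoxA left out the flank share, those of HoxB and HoxD included it, and that of HoxC reached it. A Poisson count of the same mean would leave 49.8% empty in HoxB, 48.4% in HoxA, 51.8% in HoxC and 57.2% in HoxD. The variance of the counts over bins was 1.38 to 1.93 times their mean in the clusters and 1.66 to 2.69 times in the flanks, so the reads of the clusters too were more clumped than Poisson counts, and counting intervals understate the spread.

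The longest stretches without a read of the H2ABbd-labelled library were 12 kb in HoxB (chr11:96065001-96077000), 11 kb in HoxD (chr2:74537001-74548000), 9 kb at the right end of HoxA (chr6:52211001-52220000) and 8 kb in HoxC (chr15:102819001-102827000). The 5mC-labelled library held 40, 41, 31 and 31 reads there, so reads could be aligned in part of each. Within them, chr2:74540001-74542000 in HoxD and chr11:96070001-96071000 in HoxB held no read of either library. Whether all of each stretch can be aligned was not tested. By the same limit a count of 0 allows up to 3 counts in a region fixed beforehand. These stretches, however, were chosen for holding 0 reads of the H2ABbd-labelled library.

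In the 5mC-labelled library 29 of 545 bins were empty (5.32%, against 14.5% of all bins), where Poisson counts of the same means leave 11.3. All bins include those that neither library covers. In the covered windows of 120 kb described above the median share was 7.50% and the 95th percentile 20.8%. In those of 185 kb they were 7.57% and 20.0%. HoxD held 16 of the 29 empty bins, 13.3% of its 120 bins (7.82 to 20.8%), against 3.26% for a Poisson count and 10.9% in its flanks. It was thus above the median window and below the 95th percentile. HoxA held 2 (1.67%, 0.203 to 5.89%, flanks 6.10%), HoxC 5 (4.17%, 1.37 to 9.46%, flanks 4.00%) and HoxB 6 (3.24%, 1.199 to 6.93%, flanks 2.60%). HoxD thus combined the highest density over flanks in this library with the most empty bins. Of its 16 empty bins 12 were also empty in the H2ABbd-labelled library, which held 5 reads in the other 4. Over all clusters 22 of the 29 were empty in both libraries. Adjoining pairs lay at chr2:74540001-74542000 and chr2:74606001-74608000 in HoxD and at chr15:102755001-102757000 in HoxC. Measured between neighbouring reads, stretches of 2000 bp or more without a read of the 5mC-labelled library, a length chosen after the bins were seen, numbered 3 in HoxD, 1 in HoxC and 0 in HoxA and HoxB. The rate in HoxD was 25 per Mb, beside 34.0 in its flanks and 34.4 in the whole genome. Whether such stretches lack alignable sequence or lack methylated CpG was not tested.

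**Figure D4:**
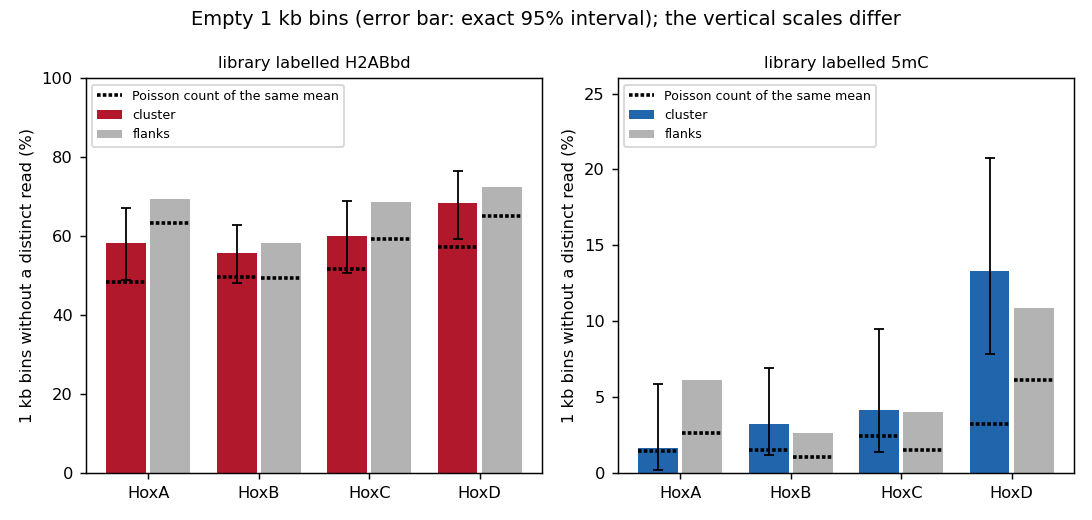
Share of 1 kb bins without a distinct read (vertical axis, percent) in each Hox cluster (coloured bar, exact 95% interval) and its flanks (grey bar), with the share a Poisson count of the same mean would leave as dotted lines. In the 5mC-labelled library (right) HoxD stands at 13.3% against 3.26% for Poisson counts. Genome windows of 120 kb, not drawn, had a median of 7.50% and a 95th percentile of 20.8%.

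Across the 1 kb bins of a cluster the levels of the libraries, as log2(RPM + 0.1), were weakly correlated in HoxA (Pearson r = 0.273, Spearman rho = 0.308, 120 bins) and HoxD (r = 0.220, rho = 0.258, 120 bins). They were close to uncorrelated in HoxB (r = 0.106, rho = 0.0711, 185 bins) and HoxC (r = 0.0865, rho = 0.0772, 120 bins). The flanks gave r = 0.182 to 0.224 over 1000 bins each. Bins share their library, depth and sequence and are not replicates, and with a median of 0 reads per bin in the H2ABbd-labelled library these values are a description. Reads of both strands were about equally frequent in the 5mC-labelled library (50.1 to 51.7% plus strand). In the H2ABbd-labelled library the plus strand held 63.3% of the 79 reads in HoxC (51.7 to 73.9%), and between 49.3 and 58.6% in the other clusters, with intervals that include an even split.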

How the data were processed

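One H2ABbd ChIP-seq and one MeDIP sample of mouse ES cells were analysed. The submitters' processing notes name FastQC, Bowtie and mm9. Versions, settings and the treatment of reads with several positions: not given in the sources used here. Each deposited file lists 1 line per aligned read of 42 bp, repeats included. The deposited score was 255 on every regular line and was not used. Broken lines (8 and 1) were left out.

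Each distinct position was counted once, moved 100 bp towards the 3′ end and binned at 1 kb. Ratios and shares have exact Clopper-Pearson intervals and counts exact Poisson intervals. Quotients and pairs have intervals from the log-scale error of 4 counts. Without molecular identifiers, PCR reads do not stand for separate molecules, and every interval or floor covers only the error of counting. The regions named are, per cluster and library, the densest bin, the highest and lowest 10 kb step, the longest run without H2ABbd reads, called bins and the densest flank bins. The calling rule and the ratio intervals were tested on simulated Poisson counts. Those are less clumped than the counts here, so the test does not cover clumping. Clusters, lists and comparisons were chosen with earlier results of these data known. The mm9 sequence and annotation were not used here, so CpG content was not set beside the bins. Promoters are from RefSeq, GRCm38.p6. Alternatives changed the reads counted, shift, depth, bins, flanks, bounds and thresholds. Python 3.11.15, numpy 2.4.6, scipy 1.17.1, pandas 2.3.3 and matplotlib 3.10.9 were used.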

Additional observations from a re-analysis of the deposited data

How the results depend on the processing

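Alternatives were run for the cluster over flank densities (108 values, of which 101 stayed within the interval of the main value), the library ratios (68 of 72), the empty bins (32 of 52), the calls in the clusters (14 of 22 within 1.5 times), the share of windows called (11 of 36) and the correlations (13 of 16 within 0.1). Alternatives that cannot move a value by construction (24 library ratios, 8 shares of empty bins and 4 shares of windows) are not counted. The settings without the highest 10 kb or the highest flank window were chosen after seeing the data.

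With the 5mC-labelled library thinned to 1397289 distinct reads in 1 draw, its HoxA ratio to the flanks turned from 1.16 to 0.980 (0.763 to 1.24), its HoxB ratio was 1.02 and its HoxD ratio 1.49; the intervals at that depth include the main values. With flanks of 1 Mb the H2ABbd ratio was 0.798 for HoxB and 0.9501 for HoxC. The 5mC ratio of HoxB was 0.852 with the left flank and 1.02 with the right. The H2ABbd ratio of HoxA was 1.39 to 1.77 over all settings, and its interval stayed above 1 in each. Intervals of HoxC and HoxD included 1 in some settings and not in others. With all aligned reads the library ratio was 0.564 in HoxA, 0.566 in HoxB, 0.631 in HoxC and 0.496 in HoxD, since repeated reads elsewhere enlarge the total of the H2ABbd-labelled library.

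Empty bins depend on bin size and depth by construction. In 500 bp bins 75.8% (HoxA), 73.8% (HoxB), 76.7% (HoxC) and 80.4% (HoxD) were empty in the H2ABbd-labelled library and 16.3%, 15.7%, 21.7% and 28.3% in the 5mC-labelled library. In 2 kb bins the shares were 35.0%, 33.3%, 33.3% and 48.3%, and 0, 0, 0 and 3.33%. Thinned, the 5mC-labelled library had 55.8%, 46.5%, 51.7% and 52.5% empty 1 kb bins, so HoxD no longer stood out.

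The single cluster bin called in the H2ABbd-labelled library became 4 with all reads, 2 with no shift and 0 at an adjusted tail of 1e-05, where 1.445%, 1.17% and 0.383% of all bins were called. The one of the 5mC-labelled library became 0 with no shift, thinned, at 8 times the mean, at an adjusted tail of 1e-05 and in 5 kb bins, where 0.510%, 0.0566%, 0.0770%, 0.205% and 0.176% of all bins were called. The share of 120 kb windows of the 5mC-labelled library called higher and lower was 1.34% and 1.85% with all reads and 1.65% and 3.23% thinned, and that of 185 kb windows 1.42% and 1.75%, and 1.19% and 1.95%; without the most covered bins 0.420% of 185 kb windows were higher. With calls at 25% above the flanks, or at the inverse of that ratio, 22.9% and 34.0% of 120 kb windows were called higher and lower in the H2ABbd-labelled library and 6.36% and 7.65% in the 5mC-labelled library, and 21.6%, 30.3%, 5.65% and 6.48% of 185 kb windows. At 2 times the shares were 2.86%, 5.99%, 0.0870% and 0.139%, and 1.86%, 3.81%, 0.0536% and 0.125%. The correlation in HoxC was -0.0760 thinned and -0.0626 in 5 kb bins, and that in HoxD 0.412 in 5 kb bins. No paired analysis was possible because each group has 1 library.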
